A study of Homo sapiens with 8 samples.

Results

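sgRNAs against the receptors for serotonin, dopamine, adrenaline and noradrenaline, histamine, muscarinic acetylcholine and opioid peptides made up 308 of the 10429 sgRNAs of this screen, 7 for each of 44 genes. They were taken by gene symbol, as the families *HTR*, *DRD*, *ADRA*, *ADRB*, *HRH*, *CHRM* and *OPR* with a letter D, K, L or M. The choice of these families was made with earlier results of these data known. All cells came from the established high-grade serous ovarian cancer line COV362, in a platinum-resistant derivative that expressed Cas9 and was otherwise wild type per the labels. A library against druggable genes was delivered by virus, the cells were split into replicate cultures after transduction and selection and grown for 2 weeks, and PRMT5 was stained inside the fixed cells, which were sorted into those with the most PRMT5 (PRMT5hi) and those with the least (PRMT5lo). 4 libraries of genomic DNA were sequenced from each population. Since all cultures descend from 1 transduction of 1 line, no p-value here reaches beyond those sister cultures.

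Most of these receptors are G protein-coupled receptors, which carry a signal from a transmitter outside the cell to G proteins inside it. Receptors that couple to Gs raise cyclic AMP, those that couple to Gi/o lower it, and those that couple to Gq/11 release calcium through phospholipase C. The *HTR3* genes are the exception and encode subunits of a cation channel opened by serotonin. The receptors are best known from neurons, smooth muscle, heart and glands, and several are expressed in only a few tissues. mRNA was not measured in the screen, so whether a given receptor was expressed in these cells is not known from the values used here. An sgRNA against a silent gene still cuts its site, and such sgRNAs can be read beside control sgRNAs. Whether the control sgRNAs also cut the genome was not examined here, so they need not be a like baseline.

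Each sgRNA had 1 abundance per population, as CPM, the reads of an sgRNA scaled to a fixed total of reads mapped to sgRNAs, averaged by the authors over the 4 libraries. The log2 ratio of an sgRNA is log2 of CPM + 1 in PRMT5lo over CPM + 1 in PRMT5hi, so a negative ratio means more of that sgRNA in cells with much PRMT5. The direction follows the legend of the study's screen plot, which gives the negative ratios to PRMT5hi; the methods text gives the opposite signs, and if those held, every direction given here would turn. The error given with an sgRNA's ratio is the SE that the authors' variances over libraries imply, and a gene's SD describes its 7 sgRNAs, which do not replicate a condition. The depth behind the values was 16166859 reads in PRMT5hi and 19117396 in PRMT5lo, or 388 and 458 reads per sgRNA and library, recovered from the variances. No molecular identifiers are described, so reads can be PCR copies and the depth limits counting error alone. The sgRNAs are known here by name alone (HTR1F_3, for example), and their cut sites and matches to paralogs were not analysed.

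No receptor gene passed the thresholds of the study's screen plot in either direction, a p below 0.01 together with a log2 ratio beyond 0.25, applied here to the one-sided Fisher p and the mean ratio of a gene. In the whole library 12 of 1420 genes passed toward PRMT5hi (0.845%) and 10 passed toward PRMT5lo (0.704%), and thresholds met this rarely leave a count of 0 of 44 near the background. At a one-sided p under 0.01 with any mean, 2 receptor genes passed toward PRMT5hi, *HTR1F* and *ADRA1A*, against 2.68% of all genes. None passed toward PRMT5lo, against 2.96% of all genes. After Benjamini-Hochberg adjustment over the library's genes, the smallest Fisher p of a receptor was 0.118 toward PRMT5hi and 0.428 toward PRMT5lo. limma was fitted to the log2 ratios with the sgRNAs of a gene as its replicates. Its p-values thus describe agreement among sgRNAs and hold no variation between libraries. With limma, the smallest adjusted p of a receptor was 0.612 (*HTR2C* and *HTR1F*). These were also the only receptors below an unadjusted limma limit of 0.05. The gene means ran from -0.24 (*HTR1F*) to 0.15 (*ADRB1*), a range of at most 1.18-fold in either direction, while those of all genes ran from -0.62 to 0.54.

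Receptor sgRNAs were about as abundant as the library as a whole. The median receptor sgRNA stood at 83.8 CPM in PRMT5hi and 83.7 CPM in PRMT5lo, beside 85.0 and 84.9 CPM for all targeting sgRNAs. On the scale of log2(CPM + 1) averaged over both populations, the median was 6.44 for the receptors, 6.42 for all targeting sgRNAs, 6.45 for 329 sgRNAs against GABA, glycine, glutamate and nicotinic receptors, 6.96 for the 500 control sgRNAs and 5.21 for 175 sgRNAs against 25 broadly essential genes. Only 7 receptor sgRNAs (2.27%) averaged under 20 CPM, against 30.9% of the sgRNAs of essential genes and 3.38% of all targeting sgRNAs. The classes were close to each other on this scale. The medians were 6.60 for muscarinic, 6.52 for dopamine, 6.49 for adrenergic, 6.43 for histamine, 6.35 for the serotonin G protein-coupled and 6.25 for opioid receptors. The serotonin-gated channel subunits had the lowest median, 6.00, which was 1.34-fold below that of all targeting sgRNAs. The SD over their sgRNAs was 0.72, larger than the distance between any of these medians. Counts of the starting library were not analysed here, so abundance at the sort cannot be divided into uneven representation and loss during growth.

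*HTR3C*, a subunit of the serotonin-gated channel, was the least abundant receptor gene, with a mean of 37.8 CPM in PRMT5hi and 35.5 CPM in PRMT5lo. *HTR2C*, a Gq/11-coupled serotonin receptor, was the most abundant, with 154 and 135 CPM. The most abundant single sgRNA was HTR2C_7, with 348 CPM in PRMT5hi and 313 CPM in PRMT5lo. Both populations ranked the sgRNAs much alike, and across the 308 sgRNAs log2(CPM + 1) in PRMT5hi and in PRMT5lo correlated with a Pearson r of 0.945. This is a correlation across sgRNAs of the same 2 pools and not across replicates, and it was 0.951 across all targeting sgRNAs.

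The differences between the populations were about as wide as their errors. The log2 ratios of the receptor sgRNAs had an SD of 0.28, and the root mean square of their SE was also 0.28. Both fell with abundance. Among the 97 receptor sgRNAs in the lowest of 3 equal parts of the targeting sgRNAs, which lay below 64.8 CPM, the SD was 0.37 and the root mean square SE 0.38. In the middle part, with 118 receptor sgRNAs, they were 0.25 and 0.25. In the highest part, above 107 CPM, with 93 receptor sgRNAs, they were 0.19 and 0.19. Control sgRNAs in the same parts had SDs of 0.38, 0.29 and 0.19. The gene means of the receptors had an SD of 0.10, and the spread among sgRNAs of the same gene divided by the root of 7 came to 0.11. For all genes the values were 0.12 and 0.11.

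Of the receptor sgRNAs, 165 had a ratio below 0 and 143 above 0. None passed a two-sided p under 0.05 after Benjamini-Hochberg adjustment over the library, where 5 of 10429 sgRNAs passed (0.0479%). At an unadjusted one-sided p under 0.05, 23 receptor sgRNAs (7.47%) passed toward PRMT5hi and 15 (4.87%) toward PRMT5lo. These shares lay beside 6.03% and 5.82% of the whole library, and beside 33 and 45 of the 500 control sgRNAs. Many of the sgRNAs that passed had a variance at the floor set by CB2, where it holds nothing but read counting. At least 1 population was at that floor for 20 of the 38 receptor sgRNAs that passed (52.6%) and for 69 of the other 270 (25.6%), and in the whole library for 52.2% of those that passed. With each variance raised to at least the median of sgRNAs of like abundance, 12 receptor sgRNAs (3.90%) passed toward PRMT5hi and 6 (1.95%) toward PRMT5lo. The shares of the whole library under that setting were 3.06% and 2.83%.

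The classes are given from here by the ligand of the receptors, with medians of gene means beside -0.0033 for all genes. Among the 12 serotonin G protein-coupled receptors, 10 had a mean below 0 (83.3%), beside 51.5% of all genes. The median of the means was -0.09, and it was -0.03 with the median over sgRNAs in place of the mean. Of the 84 sgRNAs of the class, 53 were below 0 (63.1%), beside 50.2% of all targeting sgRNAs. At a one-sided p under 0.05, 11 of them (13.1%) passed toward PRMT5hi and 0 toward PRMT5lo, beside 6.03% and 5.82% of the whole library. These 11 were spread over genes, and *HTR1F* was the only one with more than 1. With raised variances, fewer of the class passed toward PRMT5hi: HTR7_6, HTR1F_1, HTR4_5, HTR2B_5, HTR2A_1 and HTR2C_5. The library share was then 3.06%. The median CPM of the class was 86.0 in PRMT5hi and 77.5 in PRMT5lo. The root mean square SD within a gene was 0.30, and divided by the root of 7 it came to 0.11. That value describes spread among sgRNAs and is no error over libraries. The exceptions above 0 were *HTR1A*, a Gi/o-coupled receptor that also acts as an autoreceptor on serotonin neurons, with a mean of 0.02 (SD 0.14), and *HTR1D*, with 0.0018 (SD 0.62). The mean of *HTR1A* rested on 3 of 7 sgRNAs, and the median over its sgRNAs was -0.0040.

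*HTR1F*, a Gi/o-coupled serotonin receptor targeted by drugs against migraine, had the lowest mean of all 44 genes, -0.24 (SD 0.31). Its 7 sgRNAs stood in PRMT5hi and PRMT5lo at 57.2 and 33.1 CPM for HTR1F_1, 72.3 and 60.7 CPM for HTR1F_2, 74.3 and 54.6 CPM for HTR1F_3, 38.8 and 35.1 CPM for HTR1F_4, 79.4 and 71.2 CPM for HTR1F_5, and 75.6 and 67.5 CPM for HTR1F_6. HTR1F_7, the most abundant of the gene, went the other way, with 141 CPM in PRMT5hi and 166 CPM in PRMT5lo. Thus 6 of 7 sgRNAs were lower in PRMT5lo, and the ratios of single sgRNAs ran from -0.77 to 0.24. The Fisher p toward PRMT5hi was 0.000979 (adjusted p = 0.118, Benjamini-Hochberg). The smallest p of the gene belonged to HTR1F_3, with a ratio of -0.44 (SE 0.070), and its variance in PRMT5lo was at the floor. The largest difference belonged to HTR1F_1, with -0.77 (SE 0.22). The mean fell just short of -0.25, and the gene passed both thresholds when HTR1F_4, HTR1F_5, HTR1F_6 or HTR1F_7 was left out. It also passed when ratios were centred on the median of the control sgRNAs, which lay at 0.01, with a centred mean of -0.2502. Leaving out each sgRNA in turn gave means from -0.32 to -0.15 and Fisher p-values from 0.000368 to 0.0419. The largest of these p-values was the one without HTR1F_3. With raised variances and all 7 sgRNAs the Fisher p was 0.0429. *HTR1F* lies on chromosome 3 of GRCh38.p14 from 87792706 to 87993839.

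*HTR2C* had the next lowest mean, -0.22 (SD 0.19), and all 7 of its sgRNAs were less abundant in PRMT5lo. The pairs in PRMT5hi and PRMT5lo were 59.6 and 42.1 CPM for HTR2C_1, 181 and 170 CPM for HTR2C_2, 122 and 106 CPM for HTR2C_3, 106 and 104 CPM for HTR2C_4, 135 and 96.6 CPM for HTR2C_5, 124 and 117 CPM for HTR2C_6, and 348 and 313 CPM for HTR2C_7. Only HTR2C_5, with a ratio of -0.48 (SE 0.22), was below a one-sided limit of 0.05, and the Fisher p of the gene was 0.0273 toward PRMT5hi (adjusted p = 0.469, Benjamini-Hochberg). The gene lies on chromosome X from 114584086 to 114910061. The other members of its family, *HTR2A*, the main target of classical hallucinogens, and *HTR2B*, which is known from heart valves, had means of -0.04 (SD 0.29) and -0.09 (SD 0.27). HTR2A_1 was among the 5 receptor sgRNAs with the smallest p toward PRMT5hi, with 95.3 CPM in PRMT5hi and 65.7 CPM in PRMT5lo and a ratio of -0.53 (SE 0.11, adjusted p = 0.303). The remaining 6 sgRNAs of *HTR2A* lay on both sides of 0.

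Among the other serotonin receptors, all 3 that couple to Gs had a mean below 0, with -0.18 (SD 0.32) for *HTR7*, -0.12 (SD 0.30) for *HTR4* and -0.02 (SD 0.22) for *HTR6*. The mean of *HTR7* owed most to HTR7_6, with 64.1 CPM in PRMT5hi and 36.5 CPM in PRMT5lo. *HTR5A*, which couples to Gi/o, had a mean of -0.15 (SD 0.24), *HTR1B* -0.09 (SD 0.24) and *HTR1E* -0.07 (SD 0.20). The Fisher p-values of these genes toward PRMT5hi ran from 0.0609 for *HTR7* to 0.544 for *HTR6*. *HTR1D* had the widest spread of any receptor gene, and it is named for this after its values were seen. HTR1D_5 stood at 19.8 CPM in PRMT5hi and 9.05 CPM in PRMT5lo, a ratio of -1.05 (SE 0.65), and HTR1D_2 at 14.4 and 30.4 CPM, a ratio of 1.02 (SE 0.50). Both are at low abundance, and neither was among the sgRNAs below a one-sided limit of 0.05. The most abundant sgRNAs of the gene had ratios of -0.04, with 204 and 198 CPM for HTR1D_4 and 154 and 149 CPM for HTR1D_6.

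The 5 serotonin-gated channel subunits had a median mean of -0.08, with 3 genes below 0 and 2 above. *HTR3D* was lowest, at -0.19 (SD 0.25) with 6 of 7 sgRNAs below 0, and *HTR3A*, the subunit that every such channel contains, was highest, at 0.13 (SD 0.37) with 4 of 7 above 0. The Fisher p was 0.130 for *HTR3D* toward PRMT5hi and 0.124 for *HTR3A* toward PRMT5lo. *HTR3B* and *HTR3C* both had means of -0.08. *HTR3C*, *HTR3D* and *HTR3E* lie beside each other on chromosome 3, at 184053047 to 184060673, 184031544 to 184039369 and 184097064 to 184106995, and their means of -0.08, -0.19 and 0.05 did not go one way. *HTR3A* and *HTR3B* are neighbours on chromosome 11, and their means likewise lay on both sides of 0.

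*HTR3E* had the third smallest Fisher p toward PRMT5hi, 0.0263 (adjusted p = 0.467, Benjamini-Hochberg), although its mean was 0.05 (SD 0.32) and 4 of its 7 sgRNAs were more abundant in PRMT5lo. That p rested on a single sgRNA. HTR3E_5 stood at 116 CPM in PRMT5hi and 85.4 CPM in PRMT5lo, a ratio of -0.44 (SE 0.049, adjusted p = 0.0725), with both variances at the smallest allowed value. Leaving out each sgRNA in turn gave p-values up to 0.890. In the other direction HTR3E_1 stood at 67.2 and 94.2 CPM and HTR3E_6 at 179 and 211 CPM.

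All 5 dopamine receptors had means above 0, as did 48.5% of all genes, with a median of 0.08, and 22 of their 35 sgRNAs were more abundant in PRMT5lo. The median CPM of the class was 87.0 in PRMT5hi and 99.8 in PRMT5lo. The Gs-coupled D1-like receptors had means of 0.08 (SD 0.34) for *DRD1* and 0.05 (SD 0.35) for *DRD5*, and the Gi/o-coupled D2-like receptors of 0.14 (SD 0.23) for *DRD2*, 0.08 (SD 0.27) for *DRD3* and 0.14 (SD 0.14) for *DRD4*. The 5 means had an SD of 0.04, and the spread among sgRNAs of the same gene divided by the root of 7 came to 0.10. The mean of *DRD5* rested on 3 of 7 sgRNAs, and the median over its sgRNAs was -0.0116. At a one-sided p under 0.05, 1 dopamine receptor sgRNA (2.86%) passed toward PRMT5hi and 4 (11.4%) passed toward PRMT5lo, beside library shares of 6.03% and 5.82%. With raised variances only DRD5_7 of the class passed in either direction, at a one-sided p of 0.0497 toward PRMT5lo. The library shares were then 3.06% toward PRMT5hi and 2.83% toward PRMT5lo.

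*DRD4* had the smallest Fisher p of the class toward PRMT5lo, 0.0324 (adjusted p = 0.508, Benjamini-Hochberg). Its sgRNAs stood in PRMT5hi and PRMT5lo at 79.9 and 103 CPM for DRD4_1, 140.3 and 141 CPM for DRD4_2, 112 and 123 CPM for DRD4_3, 178 and 171 CPM for DRD4_4, 119 and 129 CPM for DRD4_5, 131 and 157 CPM for DRD4_6, and 89.2 and 102 CPM for DRD4_7. All but DRD4_4 were higher in PRMT5lo, and leaving out each in turn gave means from 0.10 to 0.17 and p-values from 0.0178 to 0.129. DRD5_7 had the smallest p of any receptor sgRNA toward PRMT5lo, with 46.7 CPM in PRMT5hi and 69.8 CPM in PRMT5lo and a ratio of 0.57 (SE 0.12, adjusted p = 0.330). In *DRD1*, sgRNAs of low p lay on both sides: DRD1_1 stood at 70.9 and 89.5 CPM, a ratio of 0.33 (SE 0.10), and DRD1_4 at 73.2 and 53.8 CPM, a ratio of -0.44 (SE 0.085). *DRD4* lies near the end of chromosome 11, from 637269 to 640706.

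The 9 adrenergic receptors had a median mean of 0.02, with 2 genes below 0 and 7 above, and a median of -0.0028 with medians over sgRNAs. *ADRB1*, the Gs-coupled receptor that speeds the heart, had the highest mean of all 44 genes, 0.15 (SD 0.31). In PRMT5lo 6 of its 7 sgRNAs were more abundant, with a Fisher p of 0.134. *ADRB3*, known from fat tissue, had a mean of -0.07 (SD 0.23). The Gi/o-coupled alpha-2 receptors *ADRA2A*, *ADRA2B* and *ADRA2C* had means of 0.07, 0.03 and 0.0004. *ADRA2C* is named after its values were seen, as the gene whose sgRNA ratios had the smallest SD of all, 0.063. They ran from -0.06 to 0.13, at a mean of 130.1 CPM in both populations.

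*ADRA1A*, a Gq/11-coupled receptor that contracts smooth muscle, was the lowest adrenergic gene, with a mean of -0.09 (SD 0.19), and its Fisher p toward PRMT5hi was 0.00183 (adjusted p = 0.162, Benjamini-Hochberg). The gene lies on chromosome 8 from 26748150 to 26867379. The p rested on ADRA1A_2, which stood at 180.2 CPM in PRMT5hi and 137 CPM in PRMT5lo, a ratio of -0.39 (SE 0.039). This was the smallest p of any receptor sgRNA, with an adjusted two-sided p of 0.0690. Both variances were at the smallest value allowed, at 2891 reads in PRMT5hi and 2616 in PRMT5lo. The other 6 sgRNAs went both ways, from 131 and 109 CPM for ADRA1A_5 to 65.4 and 72.7 CPM for ADRA1A_6. Without ADRA1A_2 the Fisher p was 0.289, and with raised variances and all 7 sgRNAs it was 0.163. *ADRA1B* and *ADRA1D*, of the same coupling, had means of 0.02 and 0.0049.

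The 4 histamine receptors had means from -0.17 to 0.14, with a median of -0.01 that became 0.04 with medians over sgRNAs. *HRH1*, the Gq/11-coupled target of classical antihistamines, had a mean of -0.17 with an SD of 0.064, and all 7 of its sgRNAs were less abundant in PRMT5lo. They stood at 82.8 and 71.7 CPM for HRH1_1, 87.0 and 78.6 CPM for HRH1_2, 139.9 and 118 CPM for HRH1_3, 86.6 and 78.6 CPM for HRH1_4, 116 and 107 CPM for HRH1_5, 111 and 104 CPM for HRH1_6, and 34.7 and 28.9 CPM for HRH1_7. Every ratio lay between -0.26 and -0.09, and the Fisher p was 0.106 (adjusted p = 0.690, Benjamini-Hochberg). Together with *HTR2C* it was 1 of 2 receptor genes with all sgRNAs on 1 side of 0, or 4.55% of the 44, beside 2.11% of all genes. *HRH2*, the Gs-coupled receptor that drives gastric acid secretion, averaged 0.14 (SD 0.20), positive for 6 of 7 sgRNAs, and a Fisher p of 0.0507 toward PRMT5lo. Its HRH2_5 stood at 125 CPM in PRMT5hi and 164 CPM in PRMT5lo, a ratio of 0.38 (SE 0.12). *HRH3*, a receptor of histamine neurons, had a mean ratio of -0.04 (SD 0.37) and *HRH4*, known from immune cells, one of 0.02 (SD 0.31).

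The 5 muscarinic receptors had a median mean of -0.03. *CHRM1* was lowest, with a mean of -0.14 (SD 0.34) that owed most to CHRM1_1, at 39.9 CPM in PRMT5hi and 22.2 CPM in PRMT5lo. *CHRM5* was highest, with 0.06 (SD 0.24). *CHRM3*, which acts in glands and smooth muscle, had the smallest Fisher p of any receptor toward PRMT5lo, 0.0209 (adjusted p = 0.428, Benjamini-Hochberg), at a mean of only 0.02 (SD 0.38). Its sgRNAs opposed each other. CHRM3_6 stood at 179 CPM in PRMT5hi and 203 CPM in PRMT5lo, a ratio of 0.18 (SE 0.059), and CHRM3_5 at 75.2 and 89.7 CPM, a ratio of 0.25 (SE 0.078). CHRM3_3 stood at 128 and 77.8 CPM, a ratio of -0.71 (SE 0.14) and it ranked first among receptor sgRNAs by p once variances were raised. With each sgRNA of *CHRM3* left out in turn, the Fisher p toward PRMT5lo ran from 0.00849 without CHRM3_3 to 0.127 without CHRM3_6. The mean without CHRM3_3 was 0.14. The Gi/o-coupled *CHRM2*, which slows the heart, and *CHRM4* had means of -0.06 (SD 0.40) and -0.03 (SD 0.16).

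The 4 opioid receptors had a median mean of 0.0094, and of their 28 sgRNAs 0 passed a one-sided p under 0.05 toward PRMT5hi and 1 (3.57%) toward PRMT5lo, beside library shares of 6.03% and 5.82%. *OPRK1*, the receptor for dynorphins, was highest, with a mean of 0.14 (SD 0.18), and *OPRL1*, the nociceptin receptor, lowest, with -0.04 (SD 0.19). *OPRM1*, the receptor for morphine, had a mean of 0.0009 (SD 0.23) and *OPRD1*, the receptor for enkephalins, 0.02 (SD 0.25). In both of these genes 5 of 7 sgRNAs were below 0. With the median over sgRNAs in place of the mean, the class median was -0.08, so the class had no settled side of 0.

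Grouped by coupling instead of ligand, the median of gene means was 0.05 for the 9 Gs-coupled receptors, 0.0013 for the 20 that couple to Gi/o, -0.06 for the 10 that couple to Gq/11 and -0.08 for the 5 channel subunits. Each group held genes on both sides of 0, with 4 of 9, 8 of 20, 6 of 10 and 3 of 5 below it. The groups are not independent of the classes: the Gs group held 3 serotonin receptors, all below 0, and its other receptors for dopamine, adrenaline and histamine, of which *ADRB3* alone was below 0. The 17 serotonin receptors of both kinds, with 13 below 0 and a median of -0.08, and the 5 dopamine receptors, with 0 below 0 and a median of 0.08, lay at the ends of the order. Their difference was not tested, since the classes were compared with results of these data known. The 22 other receptors had a median of 0.01, with 8 below 0.

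Genes that make, clear or relay these transmitters showed 1 call among 20. Of all genes, 0.845% were called toward PRMT5hi and 0.704% toward PRMT5lo, and a difference from that background was not tested. *SLC6A2*, the noradrenaline transporter, passed toward PRMT5hi at -0.32 (SD 0.37), its ratios being negative for 6 of 7 sgRNAs, and had means of 132 CPM in PRMT5hi and 113 CPM in PRMT5lo. Its Fisher p was 0.00650 (adjusted p = 0.289, Benjamini-Hochberg). The transporters for dopamine and serotonin, *SLC6A3* and *SLC6A4*, had means of 0.02 (SD 0.23) and -0.09 (SD 0.22). None of the 20 passed toward PRMT5lo, where *PRKX*, a catalytic kinase stimulated by cyclic AMP, had the smallest Fisher p, 0.00595, at a mean of 0.09 (SD 0.20). The largest mean in that direction belonged to *GRK2*, a kinase that turns off active receptors, with 0.20 (SD 0.34) and a Fisher p of 0.0920. None of the 4 genes of synthesis and the 6 of breakdown passed, including *TH* and *DDC*, which make the catecholamines, and *MAOA* and *MAOB*, which oxidise monoamines.

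In the reference list of 47 GABA, glycine, glutamate and nicotinic receptor genes, 1 gene passed toward PRMT5hi and 0 toward PRMT5lo. The shares of all genes were 0.845% and 0.704%. The median mean of the list was -0.02. The SD of their sgRNA ratios was 0.25, near the 0.28 of the receptors described here and the 0.25 of the control sgRNAs. At a one-sided p under 0.05, 3.65% of their sgRNAs passed toward PRMT5hi and 4.26% toward PRMT5lo, beside library shares of 6.03% and 5.82%. The sgRNAs of the 25 essential genes had an SD of 0.48 at their lower abundance.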

How the data were processed

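sgRNA abundance was measured in 4 PRMT5hi and 4 PRMT5lo libraries. Single-end reads were mapped by the authors to the library's sgRNAs, counted, and the populations compared with CB2. FastQC and hg38 are named in the submitters' processing notes; tool versions were not given in the sources. The deposited CPM values are the authors' means over the libraries of a population, and the deposited fraction of reads of each sgRNA comes with the authors' variance over libraries. The authors' log2 ratios, scores and p-values of their own comparison, per sgRNA and per gene, were not used, and neither were values of single libraries, so the spread between libraries is known from those variances alone and no single library could be checked.

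For each sgRNA the difference of the fractions was divided by its standard error, and one-sided p-values were combined per gene by Fisher's method and adjusted by Benjamini-Hochberg over 1420 genes (Python 3.11.15, scipy 1.17.1). limma 3.58.1 on the log2 ratios, with the sgRNAs of a gene as its replicates, was an alternative. The ratios used a pseudocount of 1 CPM and no filter on low values. The procedure was tested on simulated data. The planted effects were larger than any receptor mean here, so that test does not bear on finding effects of the size seen. Other alternatives were Stouffer's method, other thresholds, a pseudocount of 5 or 10, centring on control sgRNAs, a 20 CPM minimum, medians over sgRNAs, leaving out sgRNAs and raised variances; raised variances in the gene test were added after seeing the data.

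The receptors, their classes and the gene lists were chosen with earlier results of these data known. Named with full values were the lowest and highest gene mean of each class, the least and most abundant gene, the 3 smallest Fisher p-values in each direction, the 5 sgRNAs with the smallest p in each direction, and called pathway genes; others named were chosen after their values were seen. Results for some items under this rule are given only within counts and medians. Coordinates come from RefSeq GRCh38.p14, in which 44 of 44 genes matched by symbol.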

Additional observations from a re-analysis of the deposited data

How the results depend on the processing

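No receptor gene was called toward PRMT5lo under any of the 13 alternatives, and toward PRMT5hi the count stayed at 0 under 10. It was 1 (*HTR1F*) with ratios centred on the control median and where a call in any left-out fit counted, and 2 (*HTR1F* and *ADRA1A*) with no limit on the mean. Over all genes the calls, 12 toward PRMT5hi and 10 toward PRMT5lo, were 14 and 8 with ratios centred on the control median. They were 1 and 1 with limma, 5 and 2 with raised variances or a p limit of 0.001, 3 and 0 with adjusted p-values, 9 and 4 with a pseudocount of 10, 7 and 13 with medians over sgRNAs, and 37 and 40 with no limit on a mean of matching sign. Calls in any left-out fit were counted for the receptors alone, so that count has no background beside it. The median over sgRNAs turned the means of *HTR1A* to -0.0040 and *DRD5* to -0.0116, and the class median of the opioid receptors to -0.0815, of the adrenergic receptors to -0.0028 and of the histamine receptors to 0.04, and brought that of the serotonin G protein-coupled receptors from -0.09 to -0.03. The histamine median was also above 0 at a pseudocount of 10 (0.0013) and at 20 CPM (0.0040), and the opioid median was below 0 when centred on control sgRNAs (-0.0014). The serotonin, channel and muscarinic medians stayed below 0 and the dopamine median above 0 under each of the 5 alternatives for class medians. With raised variances 12 receptor sgRNAs (3.90%) passed a one-sided p under 0.05 toward PRMT5hi and 6 (1.95%) toward PRMT5lo, beside 3.06% and 2.83% of the library. At a minimum of 20 CPM the counts were 23 (7.64%) and 15 (4.98%), beside 6.16% and 5.89% of the library. No receptor sgRNA passed after adjustment in any of these. No paired analysis was possible because the deposited columns are pooled over the libraries of a population, and for the same reason no library could be left out. The precision of an sgRNA was limited by abundance, with an SD of ratios of 0.37 in the least abundant part and 0.19 in the most abundant.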
